A study of Homo sapiens with 3 samples.

Results

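Non-endocrine cells were compared between a PAX6 knockout (KO) and an unedited (WT) differentiation of H1 cells, a long-established line of human embryonic stem cells, directed toward pancreatic beta cells. A cell was taken as non-endocrine when its CHGA count, which encodes the granule protein chromogranin A, was under 5 per 10000 UMIs (unique molecular identifiers, counts of captured RNA molecules). Cells also had 1000 to 40000 UMIs, 500 or more genes and a mitochondrial share of UMIs up to 20%. This left 14002 non-endocrine cells, 7402 KO and 6600 WT, out of 17169 kept cells in these libraries and 25463 kept cells in the series. The study sequenced 1 droplet library of each PAX6 genotype: WT, HET (PAX6+/-) and KO (PAX6-/-). Its title links abnormal PAX6 expression to the IRE1α branch of the unfolded protein response. The groups shared the parental line and the differentiation toward beta cells, and differed by label only in PAX6 genotype. The sources used here do not say where PAX6 was edited or whether an edited line is 1 clone. With 1 library per genotype, genotype, clone, differentiation and library cannot be told apart, no difference was tested, and intervals (95%) cover counting error only.

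PAX6 is a paired-box transcription factor that islet endocrine cells need to make their hormones and keep their identity. Directed differentiation of stem cells takes them through definitive endoderm, gut tube and pancreatic progenitor states, and cultures end as mixtures of endocrine cells with cells of progenitor, duct, liver or intestinal character. The CHGA-poor cells were taken here as that second fraction. They also held an endocrine-like and a surface ectoderm-like cluster, and most of them were not assigned a type. Most of these cells hardly express PAX6. The small endocrine-like cluster does express it, and the sums below include that cluster.

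PAX6 itself (chromosome 11, 31784779 to 31818062, minus strand, GENCODE 29 on GRCh38) was close to absent from these cells in every library. Its level was 6.29, 2.12 and 2.39 CPM in WT, HET and KO, where CPM is the count of a library sum relative to its total after TMM scaling. It was 2.63-fold lower (2.29 to 3.03) in KO than in WT, from 614 and 299 counts. Cells with CHGA at or above the limit, called endocrine here, held 297 and 264 CPM in WT and KO, so PAX6 RNA persisted in the KO library and its level does not check the label. Within the non-endocrine cells PAX6 was highest in a small endocrine-like cluster (cluster 14), at 197 CPM (WT) and 140.5 CPM (KO). Every other cluster held 6.26 CPM or less. The fold given above for PAX6 includes the endocrine-like cluster. Over the 11 clusters compared below, which leave it out, the median log2 ratio of PAX6 was -0.85.

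The summed depth was 102621449 UMIs in WT, 115146034 in HET and 122337732 in KO. The median non-endocrine cell had 14506.5, 13961.5 and 15618.5 UMIs in the same order, and 4.72%, 6.22% and 5.41% mitochondrial UMIs. Non-endocrine cells made up 77.8% of kept WT cells, 91.0% of HET and 85.3% of KO. The limit on CHGA cut through few cells: 103 WT and 79 KO cells lay just under it at 4 to 5 per 10000 UMIs, and 76 WT and 50 KO cells just above it at 5 to 6. Doublets remain among the cells, since Scrublet called 0 in each library. WT and KO shared 26 cell barcodes.

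The cells were grouped to see whether the libraries held the same kinds of cell. Clustering left out 2373 genes, namely those at least 2-fold apart between library sums, PAX6, and the mitochondrial and ribosomal protein genes, and gave 15 clusters. Cluster 9 was proliferating-like, led by TOP2A, UBE2C and MKI67, which act in chromosome segregation. Cluster 12 was surface ectoderm-like, led by CXCL14, TFAP2B and TFAP2A. Cluster 14 was endocrine-like despite its low CHGA, led by SST, PYY, ISL1, INSM1 and NEUROD1. The other clusters met no class by the fixed markers and go by number, so what most of these cells are was not settled.

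The libraries held these clusters in unequal shares. Cluster 11, led by TNNC1, NTS and TCN1, held 13.6% (12.8 to 14.5) of WT cells but 0.967% (0.759 to 1.21) of HET and 0.567% (0.409 to 0.766) of KO cells. Cluster 10, led by MMP1 and AOC1, held 7.76% (7.12 to 8.43) of WT, 4.57% (4.11 to 5.07) of HET and 2.45% (2.11 to 2.82) of KO cells. In the other direction, cluster 5, led by the muscle and epithelial genes MYL7, KRT7 and MYOF, held 5.33% (4.804 to 5.903) of WT, 3.51% (3.11 to 3.95) of HET and 13.5% (12.7 to 14.3) of KO cells. Cluster 1, led by the apolipoprotein gene APOA2, held 11.7% (10.98 to 12.5), 4.16% (3.72 to 4.64) and 18.6% (17.7 to 19.5). Cluster 12 had 0 of 6600 WT cells, which allows a share of up to 0.0455% (3 cells of the total), against 8.097% (7.49 to 8.74) of HET and 1.65% (1.37 to 1.96) of KO cells. Clusters 0 and 2 were larger in HET and KO. Cluster 0, led by GNRH2 and LGALS14 and including SLC2A3, held 7.68% (7.05 to 8.35) of WT, 13.6% (12.8 to 14.4) of HET and 13.3% (12.5 to 14.1) of KO cells. Cluster 2, led by SLN, CCNA1 and ZEB1 and including NRP2 and FBN1, held 4.44% (3.96 to 4.96), 13.2% (12.5 to 14.01) and 11.9% (11.212 to 12.7) in the same order. The proliferating-like cluster took 4.803% (4.300 to 5.35) of WT, 6.24% (5.71 to 6.81) of HET and 5.42% (4.91 to 5.96) of KO cells. A cluster that sits mostly in 1 library may be that library and not a cell type. Since sums over cells follow such shifts, each named difference was also read within the 11 clusters (0 to 10) with at least 50 cells of each library, which held 84.5% of WT and 96.4% of KO cells.

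**Figure D1:**
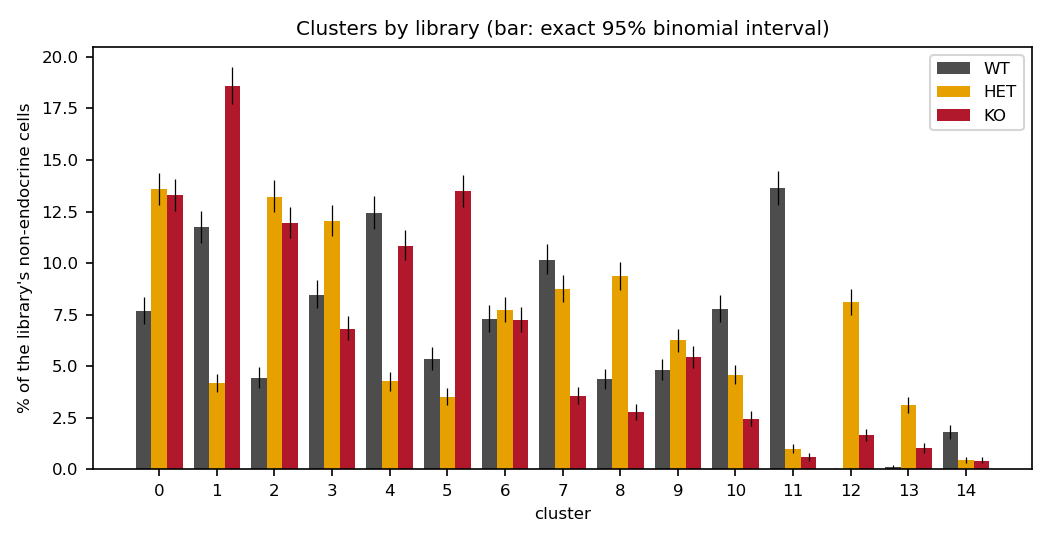
Share of each library's non-endocrine cells (vertical axis, percent) in clusters 0 to 14 (horizontal axis), with WT, HET and KO as separate bars and exact 95% binomial intervals. Cluster 11 stands out in WT, clusters 1 and 5 in KO, and cluster 12 has no WT cell.

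KO and WT non-endocrine cells were alike for most genes. Of 3504 genes with at least 50 CPM in either library, 17 were at least 2-fold higher in KO (0.485%) and 60 at least 2-fold lower (1.71%), and 90.3% lay within 1.5-fold. At a 1.5-fold limit 82 were higher (2.34%) and 259 lower (7.39%). Of the genes at least 2-fold apart, all 17 higher and 51 of the 60 lower kept their direction in every cluster compared. Keeping 1 direction across clusters was therefore common among these genes, and does not by itself set apart the genes named below. With plain CPM in place of TMM scaling the split was 24 higher and 45 lower, and the median log2 ratio of all genes moved from -0.07 to 0.04. HET set against the same WT library gave 14 higher (0.401%) and 42 lower (1.20%) of 3489 genes. Because both comparisons use the WT library, HET levels are given beside the others and do not count as a repeat. The endocrine cells of the same libraries gave 42 higher (1.13%) and 84 lower (2.26%) of 3714 genes. For lists, members with at least 5 CPM in either library were measured, and over all 11193 such genes 1.06% were 2-fold higher, 2.69% were 2-fold lower and the median log2 ratio was -0.02. With that median, at least as many of all genes lay below WT as above. Counts of list members above or below WT are to be read beside it.

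**Figure D2:**
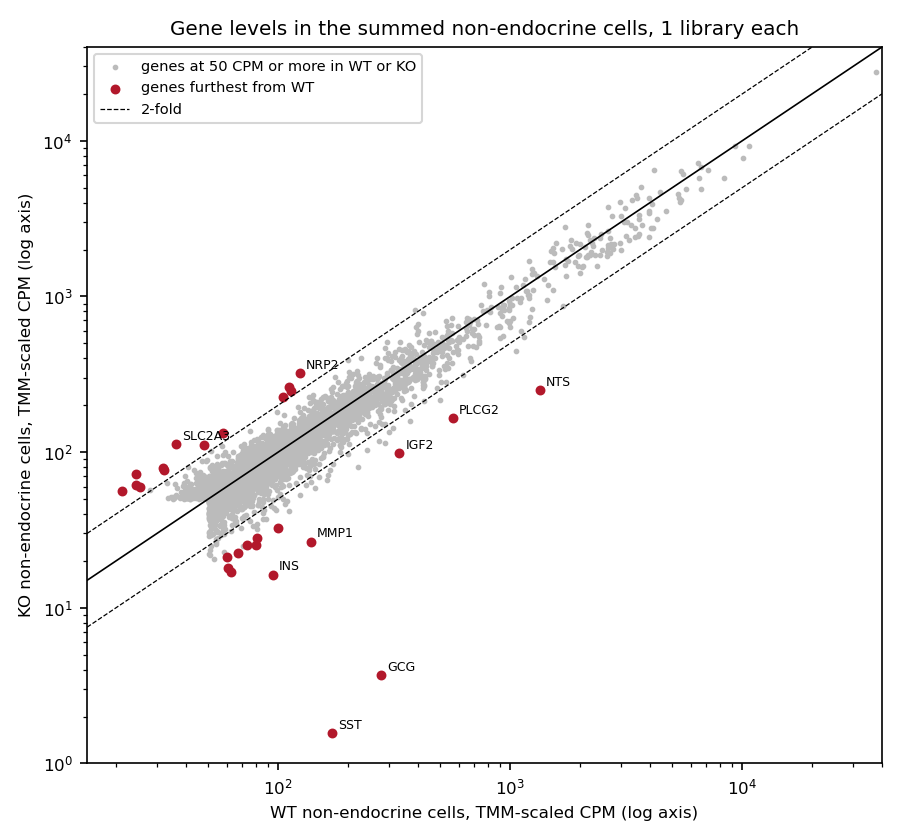
Level of each gene in the summed WT cells (horizontal axis) and KO cells (vertical axis), in TMM-scaled CPM on log axes, for genes with at least 50 CPM in either. Dashed lines mark 2-fold, dark points are 28 of the 30 genes furthest from WT, and SST and GCG lie far below all others.

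The lowest ratios belonged to islet hormone RNAs. SST, encoding somatostatin, was at 169.7, 11.4 and 1.57 CPM in WT, HET and KO, or 108-fold lower (93.97 to 125) in KO than in WT. GCG, encoding glucagon, was at 276, 68.3 and 3.67 CPM in WT, HET and KO, or 75.2-fold lower (68.6 to 82.7). INS, encoding insulin, was at 94.8, 41.7 and 16.3 CPM in WT, HET and KO, or 5.81-fold lower (5.53 to 6.09). INS overlaps the INS-IGF2 readthrough gene, so its count depends on read assignment. PYY and PPY, which encode related gut and islet peptides, were 28.6-fold lower (23.7 to 34.7) and 37.9-fold lower (27.4 to 53.8). The zinc transporter gene SLC30A8, which loads insulin granules, was 16.3-fold lower (11.8 to 23.2). Ghrelin RNA went the other way: GHRL was at 8.69, 20.1 and 23.2 CPM in WT, HET and KO, or 2.67-fold higher (2.47 to 2.89). Of 9 granin and hormone processing genes, 8 were below WT and SLC30A8, SCG3 and SCG2 were 2-fold lower, with a median of -0.57 (-1.72 to -0.17).

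The hormone RNAs were not limited to the endocrine-like cluster. GCG lay between 197 and 374 CPM across the 11 WT clusters and between 1.62 and 4.98 CPM across the KO clusters. GHRL lay between 2.003 and 9.97 CPM in WT clusters and between 16.1 and 33.8 CPM in KO clusters. The endocrine cells of the same libraries carried 27973 and 687 CPM of GCG in WT and KO, and 623 and 3490.0 CPM of GHRL. Free RNA gives low counts in cells that do not express a gene. Its part in these values was not tested, so the hormone RNAs are not counted as expression by the non-endocrine cells. SST was less even in WT, where it ranged from 31.1 to 341 CPM over the 11 clusters and reached 8968 CPM in the endocrine-like cluster. TPH1, the first enzyme of serotonin synthesis, was 3.42-fold higher (2.92 to 4.03) in the non-endocrine sums and stood at 98.4 and 376 CPM in WT and KO endocrine cells.

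Among genes with at least 50 CPM, the lowest ratios after the hormones were those of NTS, MMP1 and FGF19. NTS, which encodes the gut peptide neurotensin, was at 1340.5, 759 and 249.6 CPM in WT, HET and KO. It was 5.37-fold lower (5.31 to 5.44) in KO, and its WT level varied from 83.3 to 5123 CPM between clusters. MMP1, an interstitial collagenase, was at 138, 57.2 and 26.6 CPM in WT, HET and KO, or 5.19-fold lower (5.000 to 5.396). FGF19, an intestinal hormone that reports bile acids to the liver, was at 62.8, 22.3 and 16.97 CPM in WT, HET and KO, or 3.701-fold lower (3.52 to 3.89). IGF2, an imprinted fetal growth factor, was at 333, 147 and 98.7 CPM in WT, HET and KO, or 3.37-fold lower (3.302 to 3.44). For IGF2 the value is that of the more abundant of 2 gene identifiers that carry the symbol. HET stood between WT and KO for these 4 genes. By GENCODE 29 (GRCh38), NTS lies at chromosome 12, 85874295 to 85882992, plus strand and FGF19 at chromosome 11, 69698232 to 69704642, minus strand.

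SFRP5, a secreted WNT antagonist, was at 99.6, 55.3 and 32.3 CPM in WT, HET and KO. IL18, an epithelial cytokine, was at 81.2, 60.2 and 28.2 CPM in WT, HET and KO. SPOCK3, a secreted matrix proteoglycan, was at 80.4, 72.7 and 25.2 CPM in WT, HET and KO. They were 3.08-fold lower (2.97 to 3.200), 2.88-fold lower (2.77 to 2.995) and 3.19-fold lower (3.06 to 3.32) in KO, and HET lay closer to WT than to KO for IL18 and SPOCK3. These 7 genes, NTS to SPOCK3, were lower in KO in each of the 11 clusters, by at least 2-fold in 10 of them for NTS and in 5 for SPOCK3. NTS, MMP1 and SFRP5 are leading genes of cluster 11, MMP1 also of cluster 10, IL18 of cluster 7 and SPOCK3 of cluster 8. Cluster 7 held 10.2%, 8.76% and 3.55% of WT, HET and KO cells, and cluster 8 held 4.35%, 9.36% and 2.76%. Each of these clusters held a smaller share of KO than of WT cells. The part of these shares in the ratios was not tested. GPX2 and VSIG1, named below, also lead some of them.

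**Figure D3:**
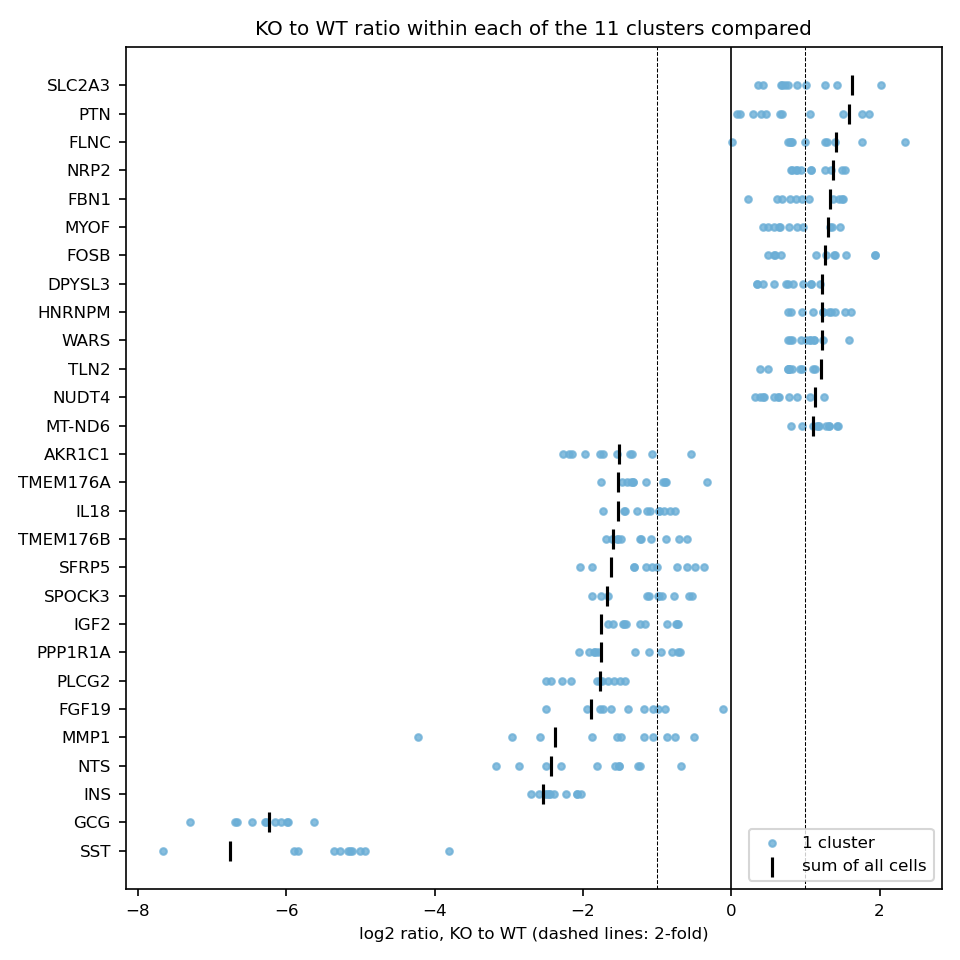
Log2 ratio of KO to WT (horizontal axis) for 28 of the 30 genes furthest from WT (vertical axis), with 1 point for each of the 11 clusters compared and a bar for the sum of all cells. Each gene keeps 1 direction in all 11 clusters, while INS and PLCG2 vary less between clusters than MMP1, NTS or FLNC.

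The other low ratios at this level were those of PLCG2, PPP1R1A, TMEM176A, TMEM176B and AKR1C1. PLCG2, a phospholipase C that signals below receptor tyrosine kinases, was at 564, 139 and 165 CPM in WT, HET and KO. It was 3.42-fold lower (3.37 to 3.48) in KO, at least 2-fold lower in each of the 11 clusters, and lower still in HET. PPP1R1A, an inhibitor of protein phosphatase 1, was at 60.98, 19.9 and 18.1 CPM in WT, HET and KO, or 3.37-fold lower (3.21 to 3.54). TMEM176A was at 73.2, 34.6 and 25.5 CPM in WT, HET and KO, or 2.88-fold lower (2.76 to 2.999). TMEM176B was at 67.1, 28.5 and 22.3 CPM in WT, HET and KO, or 3.01-fold lower (2.87 to 3.14). Both encode membrane proteins related to the MS4A family. In endocrine cells of the same libraries neither was lower, with TMEM176A at 113 and 143 CPM in WT and KO, and TMEM176B at 129 and 150.1 CPM. The difference between the cell classes was not tested.

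TMEM176A and TMEM176B lie head to head on chromosome 7 and are read in opposite directions, so the sequences before their start sites are shown as the stretch between a pair of genes with near-equal ratios. In the RefSeq promoter table (GRCh38.p14) the TMEM176A start is 405 bases from the facing TMEM176B start. The windows of 250 bases before each start are chr7:150800519-150800768 (plus strand) for TMEM176A and chr7:150800365-150800614 (minus strand) for TMEM176B. Capitals mark the 96 bases that both windows hold, which read as reverse complements of each other.
TMEM176A: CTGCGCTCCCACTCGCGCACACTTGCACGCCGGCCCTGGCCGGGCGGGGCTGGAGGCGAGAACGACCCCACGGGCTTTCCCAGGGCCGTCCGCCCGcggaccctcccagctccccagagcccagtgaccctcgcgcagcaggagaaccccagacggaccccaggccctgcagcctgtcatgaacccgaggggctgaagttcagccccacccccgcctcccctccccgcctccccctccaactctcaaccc
TMEM176B: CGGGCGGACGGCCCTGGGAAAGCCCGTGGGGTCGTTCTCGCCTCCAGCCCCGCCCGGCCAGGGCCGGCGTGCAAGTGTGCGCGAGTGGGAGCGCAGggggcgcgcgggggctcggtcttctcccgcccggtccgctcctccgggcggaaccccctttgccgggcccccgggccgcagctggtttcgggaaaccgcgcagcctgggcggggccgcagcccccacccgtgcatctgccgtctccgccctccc

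AKR1C1, an aldo-keto reductase that clears steroids and reactive carbonyls, was at 60.1, 28.1 and 21.1 CPM in WT, HET and KO, or 2.85-fold lower (2.72 to 2.98). Its relative AKR1C2 was at 164, 107 and 70.9 CPM in WT, HET and KO, or 2.32-fold lower (2.26 to 2.38). AKR1C3 was at 70.4, 30.2 and 25.1 CPM in WT, HET and KO, or 2.81-fold lower (2.69 to 2.93). All 3 lie on chromosome 10 and were lower in KO in each of the 11 clusters. The same held for 51 of all 60 genes with at least 50 CPM that were 2-fold lower, so it does not set them apart. AKR1C1 and AKR1C2 are near-identical paralogs, and the sequences before their start sites show how alike they are. In the RefSeq table (GRCh38.p14) the windows are chr10:4963165-4963414 (plus strand) for AKR1C1 and chr10:5003858-5004107 (minus strand) for AKR1C2. Capitals mark the longest run common to both, 245 of 250 bases, offset by 4 bases. Reads from such copies may not be told apart, so the split of counts between AKR1C1 and AKR1C2 is uncertain.
AKR1C1: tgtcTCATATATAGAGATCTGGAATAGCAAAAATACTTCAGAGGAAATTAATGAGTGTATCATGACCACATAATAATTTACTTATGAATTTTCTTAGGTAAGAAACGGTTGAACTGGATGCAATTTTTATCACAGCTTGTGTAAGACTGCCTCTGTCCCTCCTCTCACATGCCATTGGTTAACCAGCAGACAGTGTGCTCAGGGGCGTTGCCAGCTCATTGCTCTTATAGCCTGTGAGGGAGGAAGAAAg
AKR1C2: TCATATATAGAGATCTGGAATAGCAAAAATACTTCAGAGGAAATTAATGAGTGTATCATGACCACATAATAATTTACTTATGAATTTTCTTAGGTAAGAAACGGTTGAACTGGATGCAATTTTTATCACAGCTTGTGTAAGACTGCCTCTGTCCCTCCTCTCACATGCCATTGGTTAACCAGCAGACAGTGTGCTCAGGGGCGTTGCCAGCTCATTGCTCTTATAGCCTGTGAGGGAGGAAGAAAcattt

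Other enzymes of redox and carbonyl metabolism were then looked up, after their values were seen, and so support nothing by their number. Among them GPX2, a gastrointestinal glutathione peroxidase, was at 44.2, 23.7 and 14.99 CPM in WT, HET and KO. GSTM3, a glutathione transferase, was at 241, 127 and 103 CPM in WT, HET and KO, and PTGR1, a prostaglandin and alkenal reductase, was at 299, 174 and 135 CPM in WT, HET and KO. BLVRB, a biliverdin reductase, was at 85.7, 48.6 and 37.3 CPM in WT, HET and KO, and the quinone reductase NQO1 was at 93.1, 80.6 and 45.3 CPM in WT, HET and KO. The ratios of GPX2, GSTM3, PTGR1, BLVRB and NQO1 were 2.95-fold lower (2.79 to 3.11), 2.33-fold lower (2.28 to 2.38), 2.22-fold lower (2.17 to 2.26), 2.29-fold lower (2.21 to 2.38) and 2.05-fold lower (1.99 to 2.12). Of the other genes looked up, GCLM, PIR and TXNIP were lower in KO in each of the 11 clusters. CBR1 ranged from 36.1 to 94.9 CPM over the WT clusters and from 19.3 to 39.7 CPM over the KO clusters. For ABCC3 these ranges were 14.6 to 57.8 and 8.51 to 19.7 CPM. For FTL they were 6901 to 14240 and 4082 to 9249 CPM, and for FTH1 1674 to 4869 and 1215 to 2868 CPM. Some genes of the same chemistry lay nearer to WT. TXNRD1, a thioredoxin reductase, was 1.18-fold lower (1.16 to 1.196), HMOX1, a heme oxygenase, was 1.05-fold lower (1.000 to 1.09), and SLC7A11, the cystine importer, was 1.15-fold higher (1.12 to 1.18). HMOX1 turned to higher with plain CPM and SLC7A11 to lower where every cluster weighed the same. GCLC, the catalytic subunit of glutathione synthesis, was at 34.03, 27.99 and 34.1 CPM in WT, HET and KO.

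**Figure D4:**
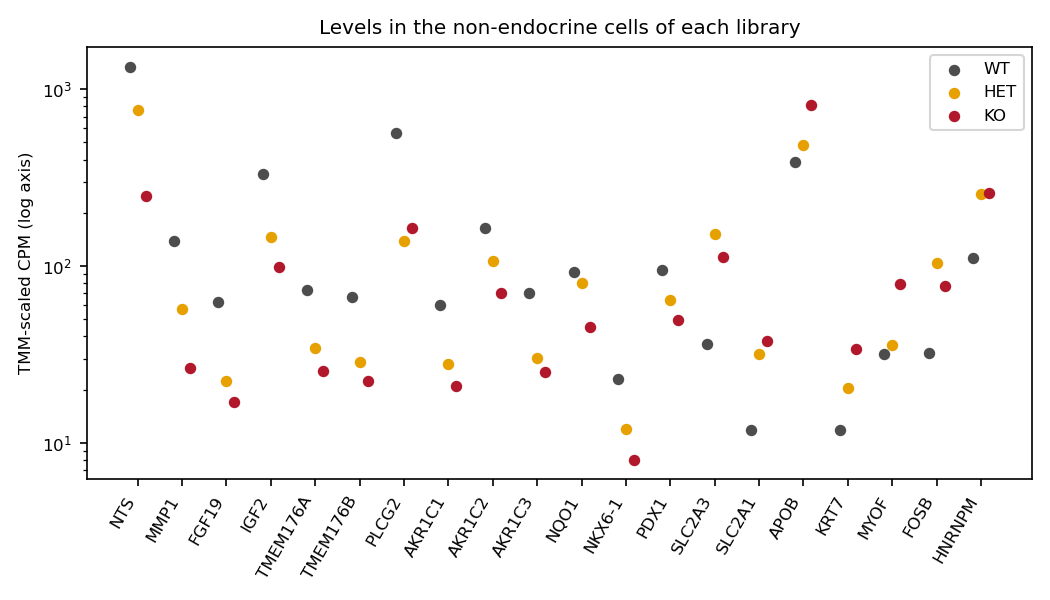
Level of 20 genes named in the text (horizontal axis) in the non-endocrine cells of WT, HET and KO, in TMM-scaled CPM on a log axis (1 point per library, so no error bar). From NTS to PDX1 the KO point lies below the WT point, and from SLC2A3 to HNRNPM above it.

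Several genes of gut and stomach epithelium were lower in KO. Of 12 intestinal genes measured, 5 were at least 2-fold lower and none 2-fold higher, with a median of -0.61 (-1.24 to -0.22). Taking each member's median ratio over the 11 clusters, the list median was -0.30. AOC1, the diamine oxidase of the gut lining, was at 33.5, 9.09 and 5.22 CPM in WT, HET and KO, or 6.42-fold lower (5.898 to 6.99). TFF3, a goblet cell trefoil peptide, was 2.37-fold lower (2.21 to 2.54), the mucin MUC13 was 2.31-fold lower (2.24 to 2.39) and adenosine deaminase (ADA) was 2.36-fold lower (2.29 to 2.43). AOC1 and TFF3 are leading genes of cluster 10, and AOC1 also of cluster 11, both of which held fewer KO cells. Within the 11 clusters compared AOC1 was lower in each and TFF3 in 9. Of 5 stomach genes, ANXA10, CLDN18 and VSIG1 were 6.35-fold lower (5.42 to 7.46), 4.84-fold lower (4.04 to 5.83) and 3.43-fold lower (3.24 to 3.63), whereas the trefoil peptide TFF1 was 2.15-fold higher (1.99 to 2.33). Among 12 solute carriers and zinc transporters, 3 were 2-fold lower. The zinc importers SLC39A4 and SLC39A5 were 4.95-fold lower (4.27 to 5.76) and 2.99-fold lower (2.73 to 3.27), and the peptide transporter SLC15A1 was 4.44-fold lower (3.802 to 5.204). Of 16 liver genes, 12 were below WT, 2 of them 2-fold, and 1 was 2-fold higher, with a median of -0.34 (-0.90 to 0.24). APOA1, the main protein of high-density lipoprotein, was at 1141, 539 and 547 CPM in WT, HET and KO, and TTR, the thyroid hormone carrier, was at 1682, 702 and 867 CPM in WT, HET and KO. APOB, the core protein of low-density lipoprotein, was at 389, 485 and 812 CPM in WT, HET and KO. APOA1 and TTR were 2.09-fold lower (2.07 to 2.11) and 1.94-fold lower (1.93 to 1.96), and APOB was 2.09-fold higher (2.06 to 2.11) and higher in each of the 11 clusters.

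Of 15 pancreatic progenitor factors, 1 was at least 2-fold lower, with a list median of -0.03 (-0.70 to 0.07) in the sums. Over within-cluster ratios the list median was -0.15. Within the list the beta-lineage factor NKX6-1 was at 23.1, 11.9 and 8.04 CPM in WT, HET and KO, or 2.87-fold lower (2.66 to 3.09). PDX1, which pancreas formation needs, was at 94.7, 63.99 and 49.4 CPM in WT, HET and KO, or 1.92-fold lower (1.85 to 1.98). Both were lower in each of the 11 clusters. SOX9, which marks progenitors and ducts, was 1.67-fold lower (1.61 to 1.73), but higher in 3 of the 11 clusters. Of 10 Notch pathway genes, which restrain endocrine commitment, the ligands JAG1 and DLL1 were 2.56-fold lower (2.44 to 2.68) and 2.19-fold lower (2.01 to 2.400), and none was 2-fold higher. Of 14 duct and epithelial genes, 12 were below WT and 1, the keratin KRT7, was 2.86-fold higher (2.68 to 3.06). Of 9 endocrine transcription factors, 4 were 2-fold lower: POU3F4, ISL1, PAX6 and INSM1. Within clusters this did not hold for all: POU3F4 was higher in KO in 7 of 11, and the list median over within-cluster ratios was 0.12 against -0.57 in the sums. ISL1 was 3.07-fold lower (2.75 to 3.43) and INSM1 2.02-fold lower (1.85 to 2.196), and the endocrine-like cluster held 118 WT cells and 30 KO cells. All 5 neuronal genes measured were below WT, 4 of them 2-fold, with NEFM, a neurofilament subunit, at 500.2, 561 and 216 CPM in WT, HET and KO. Over within-cluster ratios the neuronal median was -0.49 against -1.14 in the sums, and STMN2 and DCX, which nascent endocrine cells also express, were higher in KO in 3 and 3 of the 11 clusters.

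Among genes with at least 50 CPM, the glucose transporter gene SLC2A3 had the highest ratio. SLC2A3, encoding the high-affinity transporter GLUT3, was at 36.3, 152 and 112 CPM in WT, HET and KO, or 3.08-fold higher (2.97 to 3.199). It lies at chromosome 12, 7919230 to 7936275, minus strand. SLC2A1, encoding GLUT1, was at 11.8, 31.9 and 37.9 CPM in WT, HET and KO, or 3.21-fold higher (3.01 to 3.43). Both were higher in each of the 11 clusters, at least 2-fold in 4 for SLC2A3 and in 9 for SLC2A1. SLC2A3 is a leading gene of cluster 0, which held the larger share of KO cells given above. Of 22 glycolysis and hypoxia genes these were the only 2-fold differences, while 18 were above WT with a median of 0.41 (0.24 to 0.49). ENO1, a glycolytic enolase, was 1.65-fold higher (1.63 to 1.67), and PDK1, which blocks pyruvate entry into mitochondria, was 1.64-fold higher (1.52 to 1.76). The list median was 0.17 over within-cluster ratios, 0.05 in endocrine cells and 0.29 in HET non-endocrine cells.

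The next genes among the highest ratios included PTN, NRP2, FBN1, FLNC, TLN2, MYOF and DPYSL3. PTN, a heparin-binding growth factor, was at 24.3, 38.6 and 72.7 CPM in WT, HET and KO. NRP2, a coreceptor of semaphorins and VEGF, was at 124, 199 and 320.1 CPM in WT, HET and KO, and the microfibril protein FBN1 was at 24.3, 49.5 and 61.4 CPM in WT, HET and KO. FLNC, an actin crosslinker, was at 21.2, 24.5 and 56.3 CPM in WT, HET and KO, TLN2, which ties integrins to actin, was at 57.7, 103 and 133 CPM in WT, HET and KO, and the membrane repair protein MYOF was at 31.7, 35.6 and 78.8 CPM in WT, HET and KO. Their levels in KO were from 2.31-fold (TLN2) to 2.99-fold (PTN) those in WT. DPYSL3, a microtubule and actin regulator, was 2.34-fold higher (2.23 to 2.45). These 7 genes lay above WT in each of the 11 clusters, and MYOF and PTN levels spanned clusters from 2.904 to 245 CPM and from 3.63 to 213 CPM in KO. MYOF, PTN and KRT7 lead cluster 5, and NRP2 and FBN1 lead cluster 2. Both clusters held larger shares of KO than of WT cells, as given above, and the part of these shares in the ratios was not tested. These genes were not picked by a list. Lists of related function did not show them as a group. Among mesenchymal genes none of 8 was 2-fold apart, 6 were below WT, and their summed level was 4035, 3537 and 3662 CPM in WT, HET and KO. Among 20 YAP and cytoskeletal genes none was 2-fold higher and the median was -0.18 (-0.63 to 0.00). Among 21 collagen and laminin genes, COL4A1 and COL4A2, the basement membrane chains, were 1.53-fold higher (1.48 to 1.59) and 1.58-fold higher (1.53 to 1.62).

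HNRNPM and MT-ND6 stood above WT in both HET and KO. HNRNPM, a splicing factor, was at 111, 256 and 259.9 CPM in WT, HET and KO, or 2.33-fold higher (2.28 to 2.38), and MT-ND6, a mitochondrially encoded complex I subunit, was at 105, 248 and 227 CPM in WT, HET and KO, or 2.16-fold higher (2.11 to 2.21). Over the 11 clusters HNRNPM lay between 88.2 and 199 CPM in WT and between 226 and 349.6 CPM in KO. MT-ND6 lay at 74.9 to 130.1 CPM in WT clusters and 198 to 304 CPM in KO clusters. Separate ranges were not particular to these genes. PLCG2, at 426 to 1015 CPM in WT and 110 to 322 CPM in KO, and BLVRB also had them. The share of all genes with separate ranges was not counted, and clusters of 1 library are not replicates. In endocrine cells of the same libraries the KO level was also higher, at 74.5 and 191 CPM for HNRNPM and 148 and 328 CPM for MT-ND6 in WT and KO. The RNA-binding proteins RBM3 and SLIRP, chosen after their values were seen, were 1.899-fold higher (1.84 to 1.96) and 1.96-fold higher (1.93 to 1.998). Over the 13 mitochondrially encoded genes measured, 1 was 2-fold higher and the median was 0.23 (-0.07 to 0.64). That list moved with the mitochondrial share of UMIs given above, whose part in it was not tested.

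Of the remaining higher genes, WARS, the tryptophan tRNA synthetase, was at 47.8, 65.2 and 111 CPM in WT, HET and KO, or 2.33-fold higher (2.25 to 2.41). NUDT4, a phosphohydrolase of inositol pyrophosphates, was at 113, 108 and 247 CPM in WT, HET and KO, or 2.18-fold higher (2.13 to 2.23). NUDT4 has a near-identical copy, so its count is uncertain. FOSB, an immediate early transcription factor, was at 32.1, 105 and 76.9 CPM in WT, HET and KO, or 2.397-fold higher (2.302 to 2.497). FOSB was not followed by its class: of 20 immediate early genes 2 were 2-fold higher, 1 was 2-fold lower and the median was -0.06 (-0.34 to 0.19). The lower one was CTGF, a matricellular YAP target, at 80.6, 34.3 and 31.9 CPM in WT, HET and KO. Immediate early RNAs also respond to cell dissociation, whose part in these values was not tested.

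Most S phase genes lay somewhat above WT, and few passed 2-fold. Of 19 S phase genes 18 were above WT, 2 of them 2-fold, with a median of 0.70 (0.50 to 0.85) in the sums and 0.42 over within-cluster ratios. MCM4, a subunit of the replicative helicase, was at 9.53, 25.1 and 19.3 CPM in WT, HET and KO, and CDC6, which loads that helicase, was at 4.15, 11.6 and 8.41 CPM in WT, HET and KO. They were 2.03-fold higher (1.88 to 2.19) and 2.03-fold higher (1.81 to 2.28). Of 19 G2/M genes none was 2-fold apart, and the median was -0.05 (-0.15 to 0.20). UBE2C, a ubiquitin-conjugating enzyme of mitotic exit, was at 22.6, 35.2 and 17.3 CPM in WT, HET and KO. In HET the medians were 0.88 for S phase and 0.78 for G2/M genes, so HET was above the shared WT library in both lists. No cycling of single cells was called from these sums.

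Genes of the IRE1-XBP1 branch, which expands the secretory pathway when unfolded protein builds up, lay slightly below WT. Of 30 measured, 26 were below WT and 1 was 2-fold lower, near the 2.69% of all genes. The median was -0.18 (-0.32 to -0.10), against -0.02 over all genes. EDEM2, which acts in the degradation of misfolded glycoproteins, was at 33.8, 19.02 and 16.6 CPM in WT, HET and KO, or 2.03-fold lower (1.93 to 2.15). The Golgi retrieval receptors KDELR2 and KDELR3 were 1.73-fold lower (1.700 to 1.76) and 1.94-fold lower (1.84 to 2.04), and SSR3, a translocon subunit, was 1.64-fold lower (1.62 to 1.67). All 4 were lower in each of the 11 clusters. The list median in endocrine cells of the same libraries was -0.44, and in HET non-endocrine cells -0.22. With plain CPM, where all genes shift upward, the KO median was -0.08.

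The ATF6 list had a median close to that of the IRE1-XBP1 list, with overlapping intervals, and the PERK-ATF4 list lay slightly above WT in the sums. Of 18 ATF6 and chaperone genes, 15 were below WT with a median of -0.15 (-0.33 to -0.0038), and the oxidase ERO1B was 2.12-fold lower (2.02 to 2.22). Of 21 PERK-ATF4 genes, which serve amino acid supply and translation control, none was 2-fold apart and 16 were above WT, with a median of 0.13 (0.03 to 0.41). PSAT1 of serine synthesis and ASNS, the asparagine synthetase, were 1.82-fold higher (1.77 to 1.87) and 1.57-fold higher (1.52 to 1.62), and both were higher in each of the 11 clusters. The PERK-ATF4 median was -0.27 in HET and -0.15 in KO endocrine cells, and it became -0.05 in KO non-endocrine cells when every cluster weighed the same. Over within-cluster ratios of KO to WT it was -0.03. Cholesterol synthesis genes lay below WT, 17 of 19, with a median of -0.41 (-0.61 to -0.18) and none 2-fold apart. INSIG1, which holds back the sterol sensor, was 1.82-fold lower (1.74 to 1.92), and MSMO1, a sterol oxidase, was 1.65-fold lower (1.62 to 1.68).

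**Figure D5:**
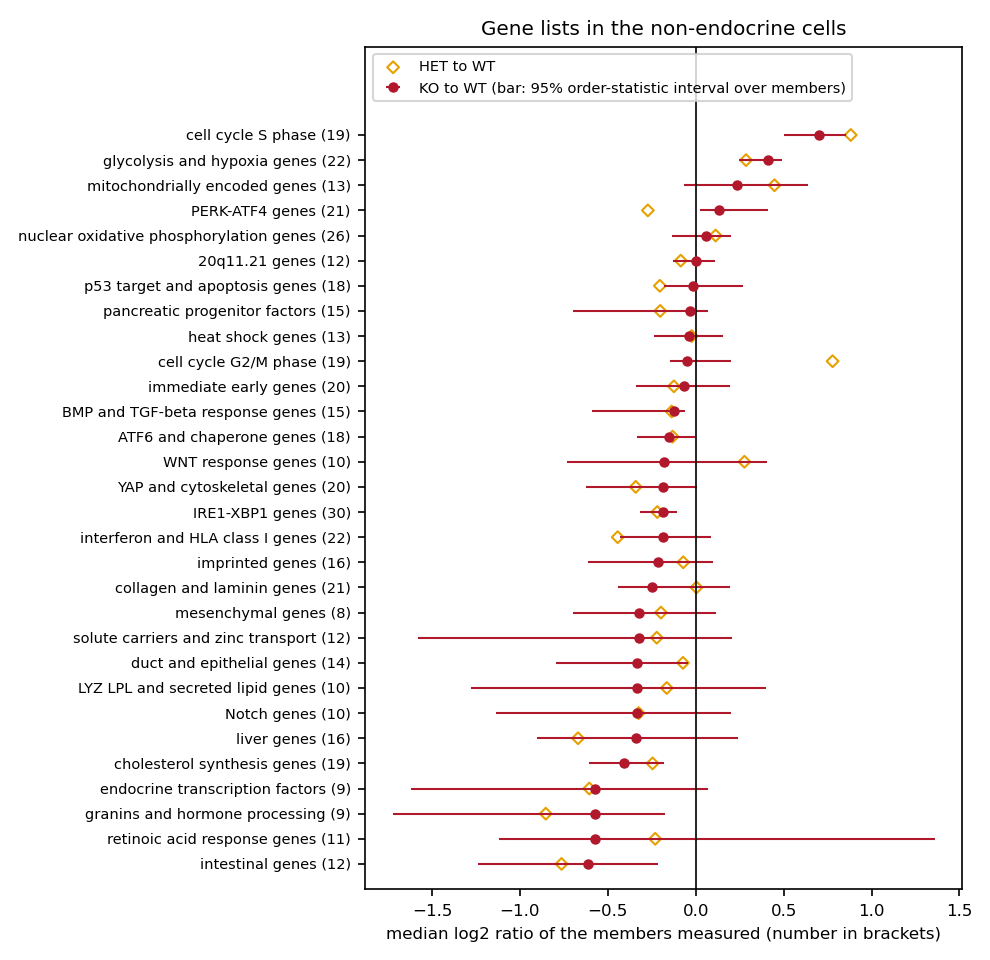
Median log2 ratio of KO to WT (filled circles) over the measured members of each list with at least 6 of them, with a 95% order-statistic interval over members (bars), and of HET to WT (open diamonds). Islet hormones lie outside the range and are left out, S phase genes are furthest right and intestinal genes furthest left, and HET and KO share the WT library.

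Retinoic acid genes differed in both directions. CYP26A1, which degrades retinoic acid, was at 1.78, 2.55 and 8.56 CPM in WT, HET and KO, or 4.800-fold higher (4.09 to 5.67), though several clusters held almost none of it. ALDH1A3, which makes retinoic acid, was 2.57-fold higher (2.22 to 2.98), whereas ALDH1A1, a related synthesising enzyme, was at 311, 246 and 144 CPM in WT, HET and KO, or 2.17-fold lower (2.13 to 2.21). The response gene RARRES2 was 2.32-fold lower (2.24 to 2.396). Thus 2 of 11 genes were 2-fold higher and 2 were 2-fold lower.

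TFAP2B, CXCL14 and GATA3 of the surface ectoderm list were almost absent from WT. TFAP2B, an AP-2 transcription factor, had 766 counts in KO against 0 in WT, or at least 199-fold higher in KO against a floor of 3 counts in the WT library. The chemokine gene CXCL14 was at 0.441, 145 and 20.6 CPM in WT, HET and KO, and GATA3, a zinc finger factor of ectoderm and trophoblast, was at 1.52, 18.1 and 5.11 CPM in WT, HET and KO. Of the 5 genes of this list, these 3 were 2-fold higher and CGA and ISL1 were 2-fold lower. The 3 higher RNAs were highest in HET, and cluster 12, which TFAP2B and CXCL14 lead, was the cluster with 611 HET, 122 KO and 0 WT cells.

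Several lists of stress, housekeeping and signal response held no 2-fold difference. None of 13 heat shock genes, 18 p53 target and apoptosis genes, 26 nuclear oxidative phosphorylation genes, 22 interferon and HLA class I genes or 15 BMP and TGF-beta response genes was 2-fold apart. Their medians lay between -0.19 (-0.43 to 0.08) for the interferon and HLA class I list and 0.06 for the oxidative phosphorylation list. The interferon value was close to the IRE1-XBP1 median of -0.18. Of the 15 BMP and TGF-beta genes 12 were below WT, with a median of -0.12 (-0.59 to -0.06). Among them ID1, an inhibitor of helix-loop-helix factors, was at 1112, 919.8 and 603 CPM in WT, HET and KO. Endothelial and immune markers were scarce: of the endothelial and immune lists only EGFL7 and LYZ passed 5 CPM. LYZ, a lysozyme also made by gut epithelium, was 2.43-fold lower (2.36 to 2.49), and EGFL7 was 2.12-fold lower (2.02 to 2.21). By chromosome, median log2 ratios ran from -0.10 on chromosome X to 0.03 on chromosome 15, and 12 genes of 20q11.21, a segment that stem cell lines often gain, had a median of -0.00 (-0.13 to 0.11).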

How the data were processed

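The deposited values were raw UMI counts per gene and barcode, and per the file headers Cell Ranger 6.1.2 wrote them. GRCh38 and Seurat appear in the submitters' processing notes, with no role. The sources used here do not give the annotation release, aligner settings or barcode filter. All 33538 genes were read, and 33456 were found by identifier in GENCODE 29, which supplied coordinates.

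Counts were summed over the non-endocrine cells of each library and scaled with TMM factors (edgeR 4.0.16, R 4.3.3) of 0.951 for WT, 1.03 for HET and 1.02 for KO. Levels, ratios and shares have exact 95% intervals. Counting error was small at this depth, and variation between libraries was not measured. Cells were clustered with scanpy 1.11.5 on 2000 variable genes, 30 principal components, 20 neighbours and Leiden resolution 1 (leidenalg 0.10.2). A cluster took a class name with at least 3 of its markers among its 10 leading genes. Scrublet (expected rate 0.08) called 0 doublets, so the caller did not work and none were removed. The ratio calculation was tested on simulated data.

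Named genes were the 15 highest and 15 lowest ratios among genes with at least 50 CPM and a 2-fold difference, up to 4 members of each of 42 gene lists, PAX6, CHGA and the islet hormones. Of the 30 genes furthest from WT, 28 are reported here. The redox enzymes other than AKR1C1, with RBM3 and SLIRP, were chosen after their values were seen. Cells, lists and alternatives were chosen with earlier results of these data known. Alternative scalings, filters and weightings were run. Those leaving out cluster 14 or keeping only the clusters held by both WT and KO were added after seeing the data.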

Additional observations from a re-analysis of the deposited data

How the results depend on the processing

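All 30 genes with the highest and lowest ratios kept their direction under each of the 11 scalings, cell filters and weightings tried. Being picked for their extreme ratios, these genes do not speak for the smaller differences named above. They also stayed at least 2-fold apart, except NUDT4 in cells with 5000 to 20000 UMIs and, where every cluster weighed the same, 10 genes, among them PTN, FLNC, FBN1, MYOF, DPYSL3, WARS, TLN2, NUDT4 and SFRP5. That weighting left 7 genes 2-fold higher and 42 lower, in place of 17 and 60. A minimum of 10 CPM gave 70 higher and 199 lower, no minimum gave 1573 and 1417, and a 1.5-fold limit gave 82 and 259. Plain CPM moved the list medians to 0.07 for pancreatic progenitor factors, -0.08 for IRE1-XBP1, 0.51 for glycolysis and hypoxia and -0.02 for BMP and TGF-beta genes, and the chromosome medians to between 0.0028 and 0.13. Equal cluster weights moved them to 0.48 for S phase, -0.33 for G2/M and 0.18 for glycolysis and hypoxia, and turned PERK-ATF4 to -0.053. G2/M was -0.29 in cells with 5000 to 20000 UMIs and -0.30 in clusters held by both libraries, an alternative added after seeing the data. The cause of these shifts was not tested. Without cluster 14 the counts were 18 and 62. At Leiden resolution 0.5 there were 8 clusters, 6 of them compared. No paired analysis was possible because each genotype had 1 library, and for the same reason no library could be left out.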
